A study of Mus musculus with 6 samples.

Results

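The S100 proteins are small calcium-binding proteins, and 10 of their genes were followed here by name in a table of 30315 genes: S100a1, S100a4, S100a6, S100a8, S100a9, S100a10, S100a11, S100a13, S100a14 and S100a16. The table held a row for 9 of the 10, and S100a9 was not analysed here. The RNA came from cultured primary tubular epithelial cells (TECs) of C57BL/6 mouse kidney, sequenced in 6 libraries. For 3 libraries the cells were transfected with siSox9, which silences Sox9, and for 3 with the control siRNA siNC, which the study's text calls siCon. The study lists a single siSox9 sequence, so any effects of it on other targets cannot be told apart here from those of less Sox9. All cells went through hypoxia/reoxygenation (H/R) starting 12 h after transfection, with 6 h at 1.0% oxygen without glucose followed by 18 h in complete medium, and no culture without H/R was compared here. The age of the mice is not given in the sources used here. They also do not say whether the replicates came from separate cultures or animals, so p-values measure only the spread between these libraries, which may be technical.

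An S100 protein binds calcium through a pair of EF-hand loops, usually as a dimer, and then exposes a surface that grips a partner protein. Inside the cell the partners include annexins, which sit on membranes, and parts of the cytoskeleton; outside the cell some S100 proteins are danger signals read by receptors such as RAGE (gene Ager) and TLR4. In the kidney, S100a8 and S100a9 are best known from infiltrating neutrophils and monocytes, S100a4 as a label of fibroblasts, and S100a6, S100a10 and S100a11 from epithelial cells.

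The deposited values were FPKM, which are reads scaled to a gene's exon length and to the library's reads, so that levels of different genes can be compared. Library totals recovered from these values were 23893197 to 25725743 reads. The silenced gene, Sox9, had 8.93, 8.61 and 9.07 FPKM with siSox9 against 25.7, 26.5 and 25.6 FPKM with siNC, a ratio of 0.342. The cells carried epithelial markers, with Krt8 at 2029 to 2190 FPKM and Epcam at 123 to 141 FPKM. Several markers of tubule segments (Slc34a1, Slc5a2, Umod, Slc12a1, Slc12a3 and Aqp2) were all under 0.14 FPKM. Of the 21 listed tubule epithelium markers 13 averaged 1 FPKM or more. In the test described below, 2 of these 13 were called higher with siSox9 and 1 lower. Markers of other cells were also present: Acta2, of smooth muscle and myofibroblasts, had 652 to 741 FPKM, and the 10 monocyte and macrophage markers summed to 179 to 198 FPKM with siSox9 and 180 to 184 FPKM with siNC. Some such markers differed between the groups: Vim, of mesenchymal and dedifferentiated cells, was lower with siSox9 (108, 113 and 110 against 131, 127 and 129 FPKM), as were both podocyte markers tested, Podxl and Synpo, and the 5 podocyte markers in the table summed to 12.5 to 13.9 against 18.8 to 19.5 FPKM. The part of these cells in the S100 results was not tested.

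S100 transcripts were abundant in these cells and came almost wholly from a few genes. The members summed to 2095, 2112 and 2247 FPKM with siSox9 and to 1988, 2141 and 2052 FPKM with siNC. By mean level over the 6 libraries the order was S100a11, S100a6, S100a10, S100a16, S100a1 and S100a13, with S100a11 at rank 13 of all 30315 genes, S100a6 at rank 71 and S100a10 at rank 199. No neighbours in this order overlapped in any pair of libraries, so the order was the same in both groups. S100a14, S100a4 and S100a8 lay far below, and their values follow at the end.

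**Figure D1:**
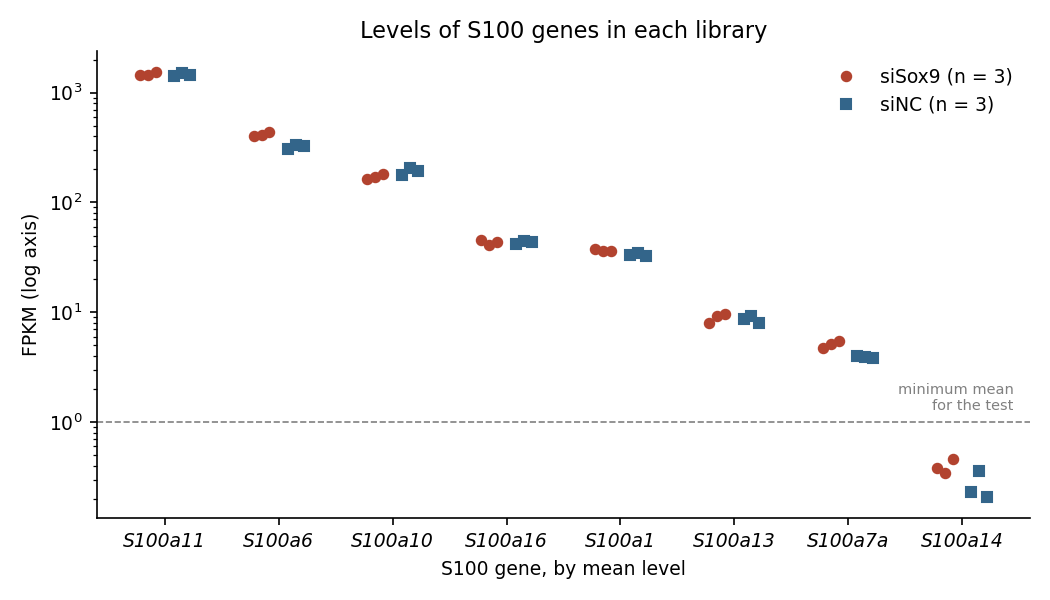
FPKM of S100 genes (vertical, log axis) in each library, with the genes in order of their mean level on the horizontal axis, red circles for the 3 siSox9 libraries and blue squares for the 3 siNC libraries. S100a11 lies at 1419 to 1542 FPKM and S100a14 at 0.210 to 0.460 FPKM; the dashed line is the mean of 1 FPKM a gene had to reach to be tested.

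Which S100 genes differed when Sox9 was reduced was tested with limma on log2(FPKM + 1) over the 12009 genes that averaged 1 FPKM or more, with Benjamini-Hochberg adjustment over all of them and a threshold of 0.05. In all, 6 members entered the test, all of them well above this minimum in both groups. Of these 6, S100a6 and S100a1 were higher with siSox9, and 4 did not pass. Over all genes tested 12.8% were called higher and 17.6% lower, so calls were common in this comparison. These were 1532 and 2118 genes, and after centring each library on its median 1959 and 1765 genes. No member was called lower by limma; 1 member, S100a10, was lower at an unadjusted p under 0.05, and limma voom on recovered reads called that 1 member lower. The median log2 fold change of the 6 members was 0.025, against -0.014 over all genes tested. In a bulk sample, fewer cells of a type and less RNA per cell cannot be told apart.

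S100a6, also called calcyclin, is a cytoplasmic S100 protein of proliferating epithelial cells and fibroblasts that binds annexins and the calcyclin-binding protein Cacybp. S100a6 had 407, 412 and 435 FPKM with siSox9 and 305, 333 and 329 FPKM with siNC. All 3 siSox9 libraries were above all 3 siNC libraries, with the lowest siSox9 library still clear of the highest control. The means were 418 ± 15.3 FPKM (SD, n = 3) and 322 ± 14.9 FPKM (SD, n = 3), a ratio of 1.30. On the log2(FPKM + 1) scale the fold change was 0.37 with a standard error of 0.045 (95% interval 0.27 to 0.48, limma adjusted p = 0.00124). Groups that do not overlap were seen for 5563 genes, 46.3% of those tested, and an exact two-sided permutation test over the libraries gave p = 0.1, the smallest p that 3 against 3 allow. S100a6 stayed past the threshold under all 15 alternatives tried, with log2 fold changes from 0.33 to 0.40. The value rested on 10364 to 14299 reads a library, and none of its exon bases overlapped another gene.

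Because S100a6 had the largest fold change of the 6 members tested, the 250 bases before its RefSeq start are shown, at chr3:90612644-90612893 on the + strand of GRCm38.p6, 5′ to 3′ in lower case. The gene model that matches the table's coordinates begins at 90612882, within the last bases of this stretch.
S100a6 upstream: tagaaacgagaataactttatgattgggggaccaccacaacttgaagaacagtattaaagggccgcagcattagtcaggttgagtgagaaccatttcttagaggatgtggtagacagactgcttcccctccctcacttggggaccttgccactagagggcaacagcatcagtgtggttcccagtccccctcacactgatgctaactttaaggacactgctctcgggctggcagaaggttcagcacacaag
The RefSeq promoter window of S100a6, 250 bases before and 50 after the start, was searched on both strands for 4 motifs. These were ACAAT, the core letters bound by SOX factors, then TGANTCA for AP-1, then TATAAA as the TATA box, and lastly GGGCGG as the GC box. The AP-1 pattern covers the usual AP-1 letters, TGACTCA and TGAGTCA, but allows any middle base. None of the 4 was in it. Among all 32851 RefSeq promoter windows of this length, 31.0% held the SOX core, 7.81% the AP-1 motif, 13.6% the TATA box and 35.7% the GC box. The GC content of the S100a6 window was 49.3%, against a median of 52.7% over all windows. A missing match says only that these letters are not in this window.

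S100a1 is the family's founding member, best known from muscle, where it binds the calcium pump SERCA2a (gene Atp2a2). S100a1 had 38.0, 36.0 and 36.0 FPKM with siSox9 and 33.2, 34.7 and 32.6 FPKM with siNC. The siSox9 libraries again all lay above the controls, but by a narrow margin. The means were 36.7 ± 1.18 FPKM and 33.5 ± 1.10 FPKM (SD, n = 3 each), and the log2 fold change was 0.13 with a standard error of 0.038 (95% interval 0.038 to 0.22, limma adjusted p = 0.0408). This call was lost without any filter (limma adjusted p = 0.0839), in TPM (0.0912) and with a block on the replicate number (0.0647). It was also lost with limma voom on recovered reads (0.106) and with voom without a filter (0.289). In TPM the set of genes tested also changed, to 15025. It was also lost on leaving out siSox9 replicate 1, 2 or 3 or siNC replicate 1 or 3, where limma's adjusted p ranged from 0.0652 to 0.128, and was kept without siNC replicate 2 (0.0369). The rise stayed between 0.10 and 0.16 on the log2 scale under all 15 alternatives.

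S100a13 is the head-to-head neighbour of S100a1. It lacks a signal peptide, as S100 proteins do, and takes part in the release of FGF1 and interleukin-1α outside the classical secretion route. S100a13 had 7.94, 9.20 and 9.66 FPKM with siSox9 and 8.67, 9.32 and 8.05 FPKM with siNC. The groups overlapped throughout, and both the lowest and the highest value were from siSox9 libraries. The log2 fold change was 0.035 (95% interval -0.14 to 0.21, limma adjusted p = 0.766), and the value rested on 143 to 167 reads a library.

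The starts of S100a1 on the - strand and S100a13 on the + strand are 42 bases apart in GENCODE M21, and this stretch is shown because the genes beside it had different outcomes in the test. It lies at chr3:90514393-90514434 of GRCm38.p6 and is written on the + strand.
between S100a1 and S100a13: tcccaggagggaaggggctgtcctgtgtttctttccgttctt
The RefSeq promoter windows of both genes cover this stretch, and neither held any of the 4 motifs. The difference between the fold changes of S100a1 and S100a13 was not tested, and their intervals overlapped.

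S100a11, or calgizzarin, is the family's main epithelial member here and binds the N-terminus of annexin A1. It had 1435, 1444 and 1542 FPKM with siSox9 and 1419, 1513 and 1443 FPKM with siNC. The groups overlapped, with the lowest value in a siNC library and the highest in a siSox9 library. The log2 fold change was 0.014 with a standard error of 0.043, and its 95% interval ran from -0.088 to 0.12 (limma adjusted p = 0.832). Without siSox9 replicate 3 or siNC replicate 1 the sign turned. Of the 50-base stretches of its exons, 41.1% also occur in the pseudogenes Gm12854, Gm29240 and Gm7665, so reads may have been split between these copies and the level is uncertain.

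The 250 bases before the RefSeq start of S100a11, at chr3:93520246-93520495 on the + strand of GRCm38.p6, are shown as the counterpart of the S100a6 stretch, since this gene was the most abundant member and did not pass the test. Capitals mark matches to the AP-1 motif and the GC box.
S100a11 upstream: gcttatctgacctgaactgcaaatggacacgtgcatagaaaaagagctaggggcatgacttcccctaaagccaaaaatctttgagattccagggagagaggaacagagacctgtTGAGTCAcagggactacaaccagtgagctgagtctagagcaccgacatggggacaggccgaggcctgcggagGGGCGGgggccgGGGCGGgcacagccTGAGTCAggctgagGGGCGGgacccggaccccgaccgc
The AP-1 motif occurred 2 times, beginning 136 and 38 bases before the start, and the GC box 3 times, beginning 64, 52 and 24 bases before it, and no match overlapped another. The GC content of this window was 61.7%. In the same search the window of S100a4 held the SOX core 2 times and the TATA box once, and that of S100a8 held the TATA box once. The window of S100a9 held the TATA box and the GC box once each, and that of S100a7a, which is described further on, held the SOX core once. Of the other S100 genes described further on, S100g held the SOX core 2 times and the TATA box once. The windows of S100a3, at several RefSeq starts, held the TATA box once and the GC box once in all. S100a16 has more than 1 RefSeq start. The window of the upstream start held none of the 4 motifs. That of the downstream start held the SOX core, the AP-1 pattern and the GC box once each. Its AP-1 match read TGAATCA, which is neither of the usual AP-1 forms.

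S100a10, or p11, forms a complex with annexin A2 at the plasma membrane that binds plasminogen and its activators. S100a10 had 162, 169 and 180 FPKM with siSox9 and 179, 206 and 194 FPKM with siNC. The groups overlapped only in that the highest siSox9 library, replicate 3, was just above the lowest siNC library, replicate 1. The means were 170 ± 9.16 FPKM and 193 ± 13.4 FPKM (SD, n = 3 each), and the log2 fold change was -0.18 with a standard error of 0.060 (95% interval -0.32 to -0.037, limma adjusted p = 0.0609; exact permutation p = 0.2). It was past the threshold on the lower side with a minimum of 5 FPKM (limma adjusted p = 0.0454), with quantile normalization (0.0121) and with a block on the replicate number (0.0363). The same held with limma voom on recovered reads (0.0112), with voom without a filter (0.00556) and without siNC replicate 1 (0.0174). It was lower under all 15 alternatives, from -0.23 to -0.13.

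S100a16 is a widely expressed member. S100a16 had 45.0, 41.2 and 43.4 FPKM with siSox9 and 42.0, 45.0 and 44.1 FPKM with siNC. The groups overlapped throughout. The log2 fold change was -0.016 (95% interval -0.12 to 0.084, limma adjusted p = 0.810), and its sign turned to 0.013 in TPM and to 0.011 after centring each library on its median.

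**Figure D2:**
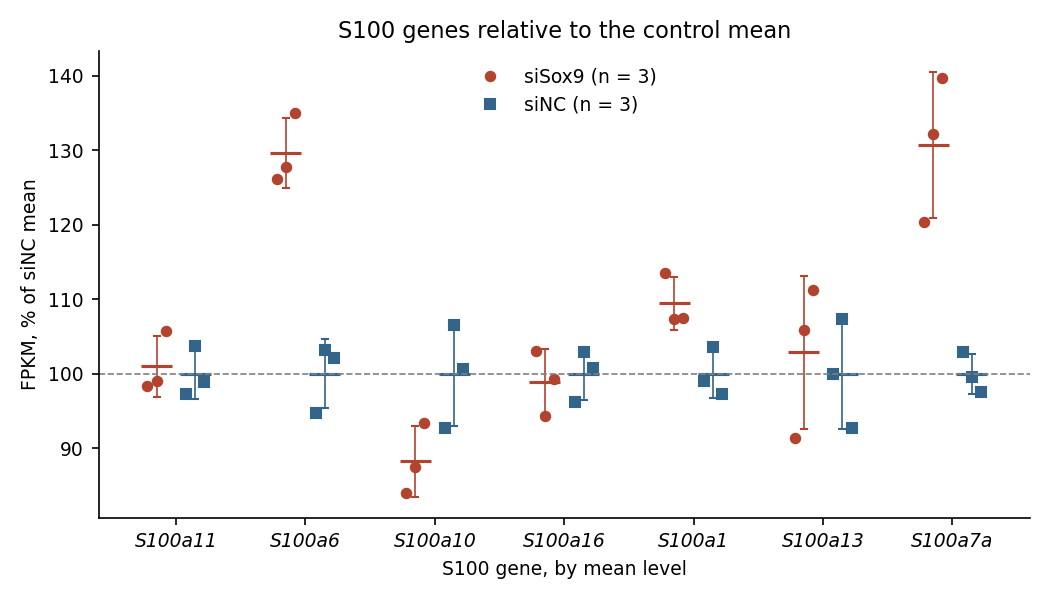
FPKM of each S100 gene tested as a percent of its siNC mean (vertical), by gene on the horizontal axis; points are libraries, short lines group means and bars 1 SD (n = 3). S100a6 lies at 126 to 135% and S100a7a at 120 to 140% of the control mean with siSox9, and the 3 siSox9 values of S100a10 lie at 84.0 to 93.4%.

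The remaining members were low or at 0. S100a14, an epithelial S100 protein, had 0.383, 0.342 and 0.460 FPKM with siSox9 and 0.233, 0.360 and 0.210 FPKM with siNC, from 17, 15 and 19 against 10, 15 and 9 reads. It was under the minimum for the test. With limma voom on recovered reads and no filter, an alternative chosen after seeing the data, its log2 fold change was 0.57 with a 95% interval from -0.22 to 1.36 (adjusted p = 0.427), so a difference of moderate size was not detectable at this depth. S100a4 had 1, 0 and 2 reads with siSox9 and none with siNC, and no fold is given at this depth. Of its exon bases 51.7% are shared on the same strand with Gm42674, which was not analysed here, so this value is uncertain. S100a8, whose protein pairs with S100a9 in calprotectin, had no read in any library, which allows up to 3 reads, or 0.168 to 0.181 FPKM depending on the library. Of the 7 neutrophil markers in the table none reached a mean of 1 FPKM and Ngp was at 0 in all libraries, with sums of 0.436 to 1.22 FPKM with siSox9 and 0.636 to 0.775 FPKM with siNC. The 9 fibroblast markers in the table summed to 768 to 827 FPKM with siSox9 and 841 to 879 FPKM with siNC, of which Acta2 made up most, and 1 of the 3 tested, Vim, was lower. Their defining marker Dcn was at 0.027 FPKM or less and Col1a1 at 4.99 to 7.09 FPKM.

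Of the other S100 genes, only S100a7a reached the minimum for the test. S100a7a, the mouse relative of psoriasin, had 4.69, 5.15 and 5.44 FPKM with siSox9 and 4.01, 3.88 and 3.80 FPKM with siNC. The siSox9 libraries all lay above the controls. The ratio of means was 1.31. On the log2(FPKM + 1) scale, which understates the change of low genes, the fold change was 0.31 with a standard error of 0.055 (limma adjusted p = 0.00561). The value rested on 129 to 180 reads a library, and 6.44% of its 50-base stretches also occur in other genes. Among the alternatives that tested it, the call was lost with limma voom without a filter (adjusted p = 0.0530). S100a3, S100b, the kidney calcium-buffering gene S100g and S100z ranged from 0 to 0.415 FPKM. S100a2, which was not on the list and was added after the table was seen, ranged from 0 to 0.370 FPKM. Of the fused genes, which join an S100 domain to long structural repeats, Flg, Flg2, Hrnr, Tchhl1 and Crnn were at 0.127 FPKM or less. Tchh (trichohyalin) had 0.474, 0.534 and 0.640 FPKM with siSox9 and 0.712, 0.718 and 0.670 FPKM with siNC, and was not tested.

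Partners of S100 proteins were called on both sides. Of 43 listed partner genes 36 were tested, and 8 were higher, 7 lower and 21 not past the threshold, with a median log2 fold change of 0.0061. These shares stand beside the 12.8% and 17.6% of all genes tested.

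Of the 5 annexins, 1 was lower and 4 did not pass. Anxa6 had 204, 205 and 212 FPKM with siSox9 and 228, 229 and 229 FPKM with siNC, with no overlap (log2 fold change -0.14, limma adjusted p = 0.00900). This call was lost in TPM (adjusted p = 0.112). Anxa2, the partner of S100a10, had 220, 229 and 250 FPKM with siSox9 and 231, 246 and 237 FPKM with siNC, which overlapped (log2 fold change -0.032, 95% interval -0.15 to 0.087, limma adjusted p = 0.672). Anxa1, the partner of S100a11, had 192, 205 and 220 FPKM against 173, 193 and 191 FPKM, and the groups overlapped (log2 fold change 0.14, limma adjusted p = 0.119). It was past the threshold in TPM (0.0477) and with a block on the replicate number (0.0349). Anxa11, a partner of S100a6, was at 5.76 to 7.40 FPKM in all 6 libraries (log2 fold change -0.0032, limma adjusted p = 0.983).

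Among 18 intracellular partners tested, 5 were higher, 4 lower and 9 not past the threshold. Cald1 (caldesmon, which binds actin) was 238, 236 and 220 FPKM with siSox9 and 177, 168 and 158 FPKM with siNC (log2 fold change 0.46, limma adjusted p = 0.000836). Ahnak, the large scaffold that S100a10 and annexin A2 hold at the membrane, was 54.1, 56.0 and 52.5 FPKM against 41.5, 43.7 and 41.4 FPKM (log2 fold change 0.35, limma adjusted p = 0.000678). Neither gene's groups overlapped, and both calls held under every alternative that could test them. Mdm2, the p53 ubiquitin ligase, rose from 56.8 ± 1.36 to 64.4 ± 0.0904 FPKM (SD, n = 3 each; limma adjusted p = 0.00401). Myh10, a nonmuscle myosin heavy chain, was lower at 22.5 ± 1.19 against 26.1 ± 0.856 FPKM (limma adjusted p = 0.0136). Its call was lost in TPM (adjusted p = 0.118). Ppp5c, a phosphatase, was lower at 23.5 ± 1.34 against 26.3 ± 0.584 FPKM (limma adjusted p = 0.0367). That call did not survive leaving out siSox9 replicate 1 or 2 or any siNC replicate, with adjusted p of up to 0.0984. It was also lost without a filter (0.0902), in TPM (0.186), after median-centring (0.0636) and with a block on the replicate number (0.0614). Cacybp, whose protein binds S100a6 and takes part in degrading β-catenin, had 37.5, 38.9 and 39.4 FPKM with siSox9 and 40.8, 43.0 and 43.6 FPKM with siNC. Cacybp was thus lower where S100a6 was higher (log2 fold change -0.14, limma adjusted p = 0.0299), but its call was lost without a filter (0.0632), after median-centring (0.0692), in TPM (0.0959) and on leaving out siSox9 replicate 1 or 2 or siNC replicate 2 or 3 (up to 0.0998). Myh9, the myosin heavy chain that S100a4 binds, had 250 to 267 FPKM with siSox9 and 264 to 278 FPKM with siNC (log2 fold change -0.066, limma adjusted p = 0.208). It passed with limma voom without a filter (0.00771).

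Of 8 receptors tested, 1 was higher, 1 lower and 6 not past the threshold. Tlr4, a receptor for S100a8 and S100a9, had 3.55, 4.09 and 4.03 FPKM with siSox9 and 2.52, 2.82 and 2.78 FPKM with siNC, without overlap. The ratio of means was 1.44, and the log2 fold change on log2(FPKM + 1), which understates the change of low genes, was 0.40 (limma adjusted p = 0.00341). Tlr4 is also expressed by macrophages: 8 of the 10 monocyte and macrophage markers were tested and 1, Lyz2, was higher (80.5, 81.8 and 87.8 against 68.0, 72.1 and 75.5 FPKM), and the part of these cells in the Tlr4 result was not tested. Ager, the gene of RAGE, was at 0.313 to 0.526 FPKM and was not tested. Bsg (basigin), another S100a9 receptor, was at 223 to 237 FPKM in all libraries (log2 fold change 0.015, limma adjusted p = 0.765). Ptprj, a receptor phosphatase, was lower at 22.7 ± 0.496 against 24.8 ± 0.127 FPKM (SD, n = 3 each; limma adjusted p = 0.0227). Its call was lost in TPM (0.271) and on leaving out any library but siNC replicate 1, with adjusted p of up to 0.0706.

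In the list of the plasminogen system and of nonclassical release, 5 genes were tested, 2 were higher and 1 lower. Plat, the tissue plasminogen activator, had 19.5, 18.9 and 19.5 FPKM with siSox9 and 16.6, 15.7 and 16.7 FPKM with siNC (log2 fold change 0.23, limma adjusted p = 0.00327). Plaur, the urokinase receptor, had 80.7, 77.7 and 78.8 FPKM against 72.8, 70.2 and 66.6 FPKM (log2 fold change 0.18, limma adjusted p = 0.0134). The call of Plaur was lost in TPM (0.0655), with quantile normalization (0.0631) and without siSox9 replicate 1 (0.0519). Fgf1, a growth factor that S100a13 helps to export, had 3.59 ± 0.0441 FPKM with siNC (SD, n = 3). With siSox9 it had 0.611 times that mean, without overlap. On the log2(FPKM + 1) scale, which understates the change of low genes, it fell by 0.52 (limma adjusted p = 0.000441). This was the largest change among the named partners.

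**Figure D3:**
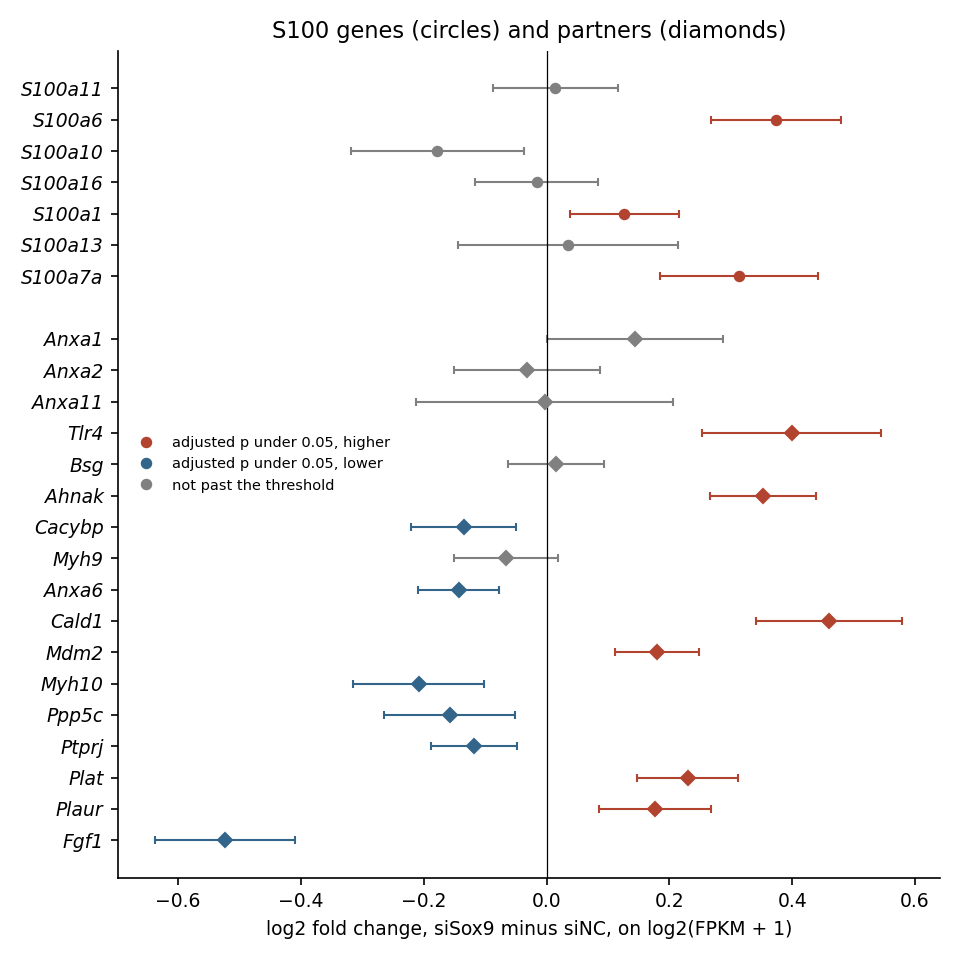
Log2 fold change on log2(FPKM + 1) (horizontal, siSox9 minus siNC) of the S100 genes (circles) and of the partner genes named by rule (diamonds), with bars for the 95% interval from limma, red for higher, blue for lower and grey for not past an adjusted p of 0.05. S100a6 at 0.37 lies apart from S100a11 at 0.014, and the partners lie on both sides of 0.

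All 9 members in the table lie on chromosome 3, between 90511034 and 93564643 of GRCm38. S100a1, S100a13, S100a14, S100a16, S100a4, S100a6 and S100a8 form one group there, and S100a11 and S100a10 another, with 2850 kb between S100a8 and S100a11. The stretch between holds the epidermal differentiation complex, with the genes of the cornified envelope of skin such as Sprr, Lce, loricrin (Lor) and involucrin (Ivl). The whole span has 76 genes in the table, 12 of them S100 genes. Of the 7 S100 genes tested in the span 3 were higher (S100a1, S100a6 and S100a7a), beside 12.8% of all genes tested. Of the 12 other genes tested 6 were lower, beside 17.6% of all genes tested, and none was higher by limma; 2 of them, Crct1 and Ivl, were higher at an unadjusted p under 0.05, and limma voom called 0 higher. On the log2(FPKM + 1) scale, the 3 largest changes past the threshold among these other genes were those of Lce6a (1.78 ± 0.284 against 4.07 ± 0.341 FPKM, log2 fold change -0.87, limma adjusted p = 0.000582), Lce1h (17.8 ± 1.94 against 29.1 ± 2.5 FPKM, -0.68, adjusted p = 0.00145) and Sprr1a (300 ± 4.88 against 396 ± 10.8 FPKM, -0.40, adjusted p = 0.000258; mean ± SD, n = 3 each). By the ratio of means, Lce1f (0.733) and Gm4202 (0.756) fell slightly more than Sprr1a (0.759). Genes of like name in the Lce family can share reads, so their separate values are less certain. Of the tested genes 4 S100 genes and 6 others were not called, and whether the S100 genes and the other genes of the stretch differ as groups was not tested.

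**Figure D4:**
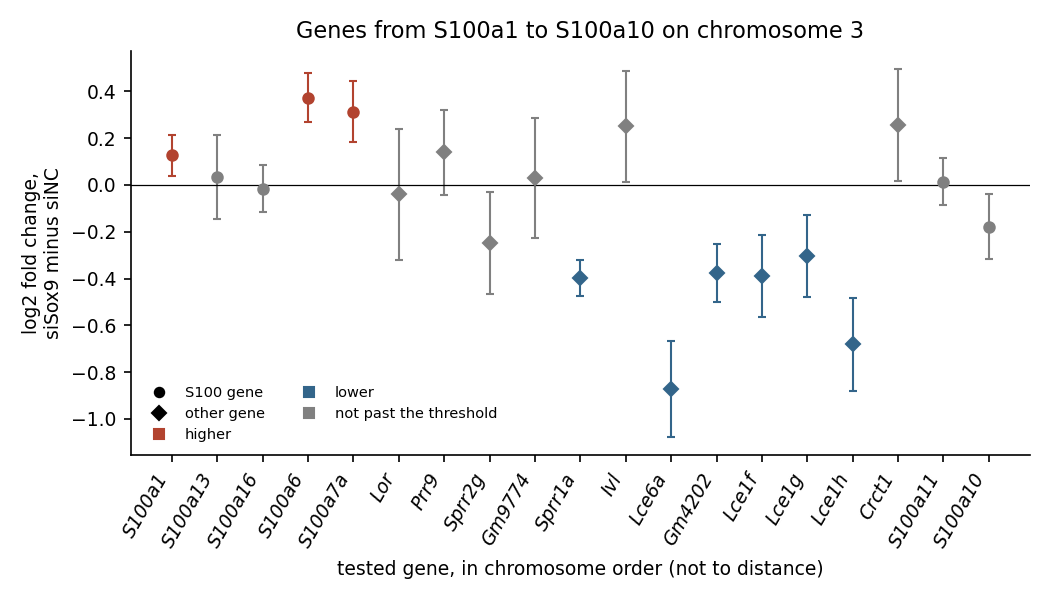
Log2 fold change (vertical, siSox9 minus siNC, with 95% intervals from limma) of the 19 tested genes from S100a1 to S100a10, in chromosome order on the horizontal axis without regard to distance; circles are S100 genes and diamonds other genes. The 3 genes called higher are S100 genes at the left end, and the 6 called lower are Sprr1a, Lce6a, Gm4202, Lce1f, Lce1g and Lce1h in the middle.

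The result for S100a6 and that for S100a1 differed in how much they leaned on single choices. S100a6 was past the threshold in the fit reported and under all 15 alternatives, S100a1 under 5 of the 15 and S100a10 under 6 of the 15, while S100a11, S100a13 and S100a16 passed under none.

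**Figure D5:**
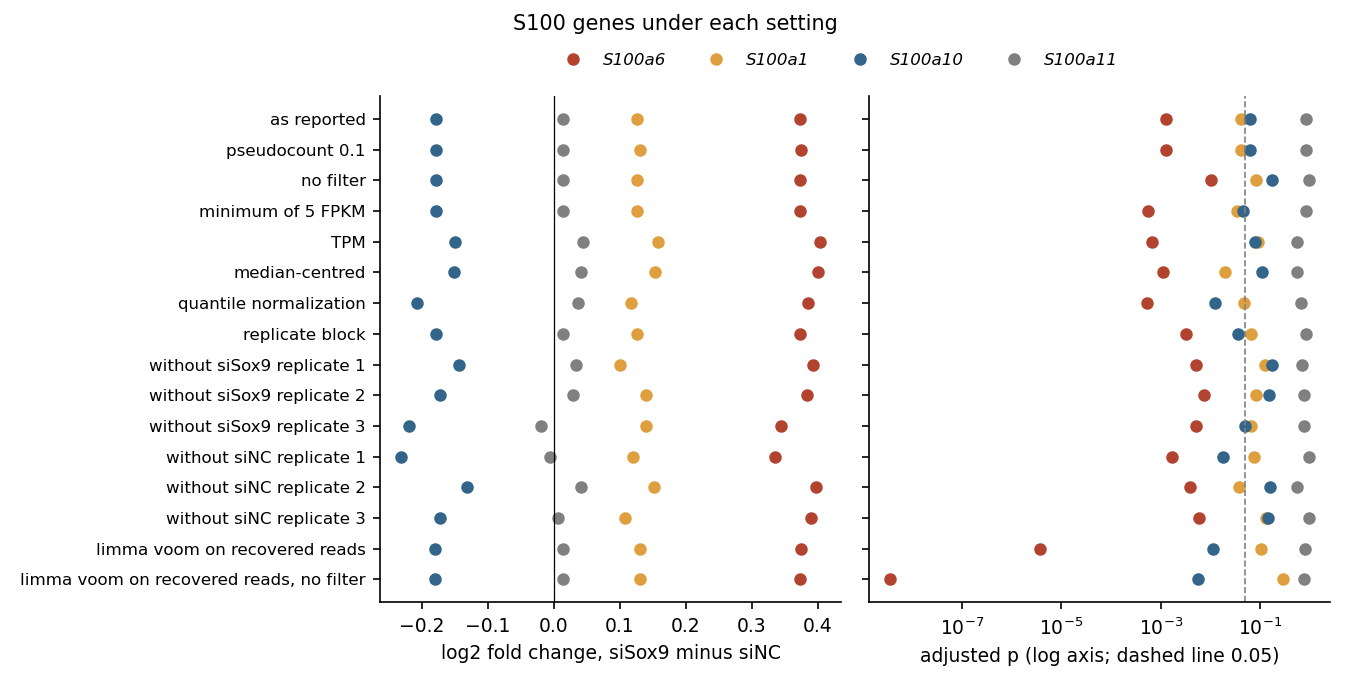
Log2 fold change (left, horizontal) and adjusted p from limma (right, log axis, dashed line at 0.05) of S100a6, S100a1, S100a10 and S100a11 under the fit reported and each alternative (vertical). The points of S100a6 lie between 0.33 and 0.40 and left of the dashed line in every row, and those of S100a1 and S100a10 lie on both sides of it.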

How the data were processed

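RNA-Seq libraries were from mouse primary renal TECs after H/R, 3 with siSox9 and 3 with siNC, grouped by the labels. The values deposited by the authors are FPKM, with no further scaling between libraries. The submitters' processing notes name Bowtie2 2.2.3, HISAT2 2.1.0, TopHat2 and the build mm9, whereas 93.3% of the genes found in GENCODE M21 have the table's positions there, in GRCm38; whether counting used strand is not given in the sources used here. The siSox9 columns carry another name, and were assigned because siSox9 is the only siRNA in the labels that is not the control. Per-sample columns left out numbered 0.

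Whole reads were recovered from exon lengths: the reads of 27948 genes lay within 0.02 of a whole number in each of the 6 libraries. The mean chi-square per gene between libraries of a group was 1.85 to 6.33, above sampling noise. The siNC pairs with replicate 1 gave 6.07 and 6.33, and siNC replicates 2 and 3 gave 2.55. Each library was counted as its own, but these values cannot tell separate cultures from separate preparations of the same culture. Intervals from limma rest on the spread between the libraries of a group, and floors of 3 reads cover counting error only.

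limma 3.58.1 in R 4.3.3 (lmFit, eBayes with a trend) was fitted without a block to log2(FPKM + 1), which understates the change of low genes, over the 12009 genes that averaged 1 FPKM or more. It was tested on simulated data for this comparison over 10476 genes. There it called 99 of 100 genes changed by 1 on the log2 scale, 87 of 100 changed by 0.4 and 19 of 10276 unchanged genes. Every simulated gene had the same set spread beyond counting error, and most were unchanged. Smaller changes, such as those estimated for the S100 members, were not simulated, so these counts do not apply to them. Alternatives were a pseudocount of 0.1, other filters, TPM, median-centring, quantile normalization, a replicate block, each library left out and limma voom on recovered reads. For TPM the minimum mean of 1 was applied after rescaling, so 15025 genes were tested. A call lost or gained in TPM therefore cannot be assigned to the unit or to the set of genes tested. The members and lists were chosen with earlier results of these data known. Named were all members, the other S100 genes, Sox9, 9 fixed partners, the 3 largest rises and falls past the threshold in each partner list, and the 3 largest changes between the outermost members. Promoter sequences were from RefSeq, GRCm38.p6, whose table matched 8 of the 10 members; S100a10 and S100a14 were not matched.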

Additional observations from a re-analysis of the deposited data

How the results depend on the processing

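The count of S100 members called higher was 2 and fell to 1, S100a6 alone, without a filter, in TPM, with the replicate block, with limma voom on recovered reads and with voom without a filter (the last chosen after seeing the data); leaving out each library gave 1 to 2. The count called lower was 0 and became 1, S100a10, with a minimum of 5 FPKM, with quantile normalization, with the replicate block, with limma voom and with voom without a filter; leaving out each library gave 0 to 1. Deviations of same-numbered libraries of the groups correlated at -0.050 to 0.065, and those of differently numbered pairs at -0.082 to 0.090. Deviations were taken from each group's mean, and the values of same-numbered pairs lay within the range of the other pairs. Whether libraries with the same replicate number shared a culture or batch was not tested. The block on this number changed the calls of S100a1 (adjusted p = 0.0647), S100a10 (0.0363), Anxa1 (0.0349) and Ppp5c (0.0614) and of no other named gene, and called 1373 genes higher and 1889 lower of all tested, against 1532 and 2118 without it. Median-centring gave 1959 higher and 1765 lower, and a minimum of 1 FPKM replaced by none gave 1117 and 1583. Signs turned for uncalled genes: S100a16 was 0.013 in TPM and 0.011 after median-centring, and Anxa11 was 0.024 in TPM, 0.023 after median-centring and 0.028 with quantile normalization. Leaving out each library gave -0.019 to 0.041 for S100a11, -0.018 to 0.11 for S100a13, -0.046 to 0.017 for S100a16, -0.083 to 0.0067 for Anxa2, -0.097 to 0.059 for Anxa11 and -0.012 to 0.030 for Bsg. Where calls were lost, the cause was not tested. Depth limits what can be said of S100a4, S100a8 and S100a14.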

Other observations

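Ratios of S100 genes within a library were looked at after their values had been seen, and are given as a description without a test. The ratio of S100a6 to S100a11 in FPKM was 0.283, 0.285 and 0.282 with siSox9 and 0.215, 0.220 and 0.228 with siNC. It varied less between siSox9 libraries (SD 0.00146, n = 3) than with siNC (SD 0.00654, n = 3), and both genes were highest in siSox9 replicate 3 within their group. The ratio of S100a10 to S100a11 was 0.113, 0.117 and 0.117 with siSox9 and 0.126, 0.136 and 0.135 with siNC, so that its groups did not overlap although those of S100a10 alone did. The ratio of S100a10 to Anxa2, whose proteins bind each other, was 0.736, 0.739 and 0.722 with siSox9 and 0.776, 0.838 and 0.820 with siNC.

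The members made up 0.729, 0.733 and 0.765% of the summed FPKM with siSox9 and 0.708, 0.713 and 0.669% with siNC. S100a11 alone made up 0.470 to 0.525% of the sum in each library.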
